A study of Mus musculus with 12 samples.

Results

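The genes described here are 29 enzymes and carriers of the tricarboxylic acid cycle and of the steps that bring pyruvate into it, taken by gene symbol from the annotation of the array. Of the 29, 27 had a probe set that named no other gene and all 27 passed the filter on dim signals, which asked for a log2 signal above 4 on at least 3 of the 12 arrays. Mpc2, the partner of Mpc1 in the mitochondrial pyruvate carrier, and Ogdhl, a relative of Ogdh, had no probe set naming them alone. Their expression is therefore not analysed here. The members stand among 12855 genes tested, and each is represented by its brightest probe set, judged over the 12 arrays together. Expression was measured on Affymetrix arrays in white adipose tissue, without the depot being given, of male mice labelled C57/BL6 and 6 to 8 weeks old. The animals had been housed at 22 °C and, per the labels, adapted to 18 °C for 1 to 3 weeks before transfer to 4 °C. The groups were 1 week at 4 °C, the 1 week controls, 5 weeks at 4 °C and the 5 week controls, with 3 arrays each. For the controls the sample titles give 30 °C and the source labels give room temperature, so the temperature of the control animals cannot be told from the labels. Separate animals are not named for the replicate arrays, and p-values therefore measure the spread between arrays, which may be technical.

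The tricarboxylic acid cycle oxidises acetyl coenzyme A in the mitochondrial matrix and passes the electrons to the respiratory chain. Pyruvate reaches it through the mitochondrial pyruvate carrier and then either the pyruvate dehydrogenase complex, which makes acetyl coenzyme A, or pyruvate carboxylase, which makes oxaloacetate. Several steps also have a cytosolic counterpart, which takes part in the shuttling of malate and aspartate or supplies NADPH for fatty acid synthesis. White fat of mice kept in the cold is known to gain adipocytes rich in mitochondria that express Ucp1, the uncoupling protein of thermogenic fat.

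Promoters from RefSeq (mouse build GRCm38.p6, 250 bases before and 50 after each annotated start) were found for 27 of the 29 members, 35 promoters in all, and for Idh3a and Me2 none was used. Mpc2 and Ogdhl, which have no signal, are among these 27. Idh1, Mpc1, Pcx and Ogdh have more than 1 annotated start, and some promoters of Ogdh overlap, so the promoters are not independent. The element TNAAGGTCA, bound by estrogen-related receptors, was searched on both strands and was in 0 of the 35 member promoters, against 1.28% of all 32851 promoters of the same length. The palindromic motif of NRF1 was also in 0 of 35, against 0.971% of all promoters. The ETS motif CCGGAAGT, the kind of site that GABP binds, was in 1 of 35, or 2.86%, against 3.89% of all promoters. That match was in the promoter of Dlst, where it read ACTTCCGG and began at the annotated start (chr12:85110833-85110840). The shorter core AAGGTCA lies within the first motif and was not among the motifs planned. It was in 2 of 35 promoters, or 5.71%, against 4.72% of all: those of Ogdh and Got1. The 250 bases upstream of the start are shown 5′ to 3′ for 4 genes on which the results below turn. By brightest probe sets at 1 week, Dlat had the largest rise of all members and Suclg1 the largest among the enzymes of the cycle itself. Pcx has 2 annotated starts and fell at 5 weeks, and Got1 is shown since its partner Got2 did not pass the test. Capitals mark the AAGGTCA match, in Got1 alone.
Dlat (chr9:50659781-50660030, minus strand): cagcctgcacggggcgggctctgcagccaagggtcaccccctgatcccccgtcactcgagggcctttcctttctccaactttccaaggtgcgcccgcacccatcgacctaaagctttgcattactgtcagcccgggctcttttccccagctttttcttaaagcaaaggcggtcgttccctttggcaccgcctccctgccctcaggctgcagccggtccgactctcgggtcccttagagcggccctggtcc
Suclg1 (chr6:73248255-73248504, plus strand): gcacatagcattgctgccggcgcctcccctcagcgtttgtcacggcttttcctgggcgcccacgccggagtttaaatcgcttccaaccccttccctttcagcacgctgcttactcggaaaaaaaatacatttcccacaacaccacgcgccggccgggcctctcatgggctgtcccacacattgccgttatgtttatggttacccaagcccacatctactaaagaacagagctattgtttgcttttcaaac
Pcx, upstream start (chr19:4510222-4510471, plus strand): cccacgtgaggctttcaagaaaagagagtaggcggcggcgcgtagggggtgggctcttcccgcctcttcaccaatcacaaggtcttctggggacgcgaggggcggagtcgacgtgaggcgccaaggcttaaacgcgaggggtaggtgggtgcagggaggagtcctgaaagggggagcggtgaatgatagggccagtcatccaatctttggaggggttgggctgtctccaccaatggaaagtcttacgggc
Pcx, downstream start (chr19:4594069-4594318, plus strand): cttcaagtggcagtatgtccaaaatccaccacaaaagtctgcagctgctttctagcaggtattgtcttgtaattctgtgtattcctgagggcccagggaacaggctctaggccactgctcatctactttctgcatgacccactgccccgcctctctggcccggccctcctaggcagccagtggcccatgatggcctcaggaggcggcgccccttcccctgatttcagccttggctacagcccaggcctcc
Got1 (chr19:43524606-43524855, minus strand): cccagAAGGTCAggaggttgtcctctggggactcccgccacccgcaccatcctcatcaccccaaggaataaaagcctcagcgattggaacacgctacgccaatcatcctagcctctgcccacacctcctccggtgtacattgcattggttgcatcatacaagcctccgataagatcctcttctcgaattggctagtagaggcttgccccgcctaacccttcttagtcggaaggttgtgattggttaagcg

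Array medians lay between log2 4.79 and 4.89, and the mean correlation of an array with its fellow replicates was 0.992 to 0.998. Of the markers of other cell types, 7 of 7 brown or beige adipocyte genes rose at both weeks and 4 of 6 macrophage genes and 5 of 5 tested lymphocyte genes fell at both weeks. The mean of 7 tested white adipocyte genes was 12.9 to 13.02 in the 1 week cold arrays, against 12.5 to 13.02 in their controls, and 12.6 to 12.8 in the 5 week cold arrays, against 13.05 to 13.1 in theirs, which lay above all 3. The mean of 4 endothelial genes was 8.77 to 8.91 in the 1 week cold arrays, against 8.91 to 9.01 in their controls, and 8.44 to 8.65 in the 5 week cold arrays, against 8.72 to 9.07 in theirs. The mean of the brown or beige list was 11.5 to 11.9 in the 1 week cold arrays, against 6.21 to 6.87 in their controls, and 11.1 to 11.6 in the 5 week cold arrays, against 6.35 to 6.82 in theirs. For macrophage genes it was 9.55 to 9.69 against 10.1 to 10.3 and 9.53 to 9.68 against 10.4 to 10.5 (cold against control at 1 and at 5 weeks), and for lymphocyte genes 8.40 to 8.61 against 9.08 to 9.77 and 8.65 to 8.84 against 9.54 to 9.56. The mean of 16 tested skeletal muscle genes was 5.19, 9.61 and 5.28 in the 1 week cold arrays, against 5.23 to 5.67 in their controls, and 4.88 to 5.08 in the 5 week cold arrays, against 8.00 to 8.27 in their controls. Muscle transcripts were therefore high on 1 cold array at 1 week and on all 3 controls at 5 weeks, and on the 5 week cold arrays 4 of the 16 genes were below log2 4 throughout. Signal along control transcripts differed as well: the signal of the Gapdh control probe sets at the 3′ end exceeded that at the 5′ end by -0.08 to 0.34 in the 1 week cold arrays, against 0.90, 3.00 and 3.12 in their controls, and by 0.96, 0.19 and 3.01 in the 5 week cold arrays, against -0.08 to 0.03 in theirs. For Actb the same difference was 1.84 to 2.80 in the 5 week cold arrays and 1.01 to 1.35 in the other 9. The part of these differences in the results below was not tested, apart from the fits with a covariate that are named. In whole tissue, a larger share of cells rich in an enzyme and more of its RNA per cell cannot be told apart.

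Most of the enzymes rose after cold. At 1 week 21 of the 27 members rose, 1 (Me2) fell and 5 did not pass the test, with limma's Benjamini-Hochberg adjusted p under 0.05 over all 12855 genes. Of all genes 49.5% were called at that time, 17.9% upward and 31.6% downward. The median member changed by 1.15 on the log2 scale and the median gene by -0.08, and 17 members rose at least 2-fold, as did 4.03% of all genes. At 5 weeks 21 members rose, 1 (Pcx) fell and 5 did not pass, while 36.2% of all genes were called, 15.0% upward and 21.2% downward, with a median of 0.93 for the members and -0.03 for all genes. The rise was at least 2-fold for 13 members at 5 weeks and for 2.68% of all genes. At 1 week every cold array lay above every control array for 22 members (26.0% of all genes) and below for 2 (33.7%), and at 5 weeks above for 22 (28.3%) and below for 2 (30.7%). At both weeks 20 members rose, against 8.58% of all genes, and 21 members were above without overlap at both, against 15.9% of all genes. These counts include Me3, which passed the filter on dim signals through the cold arrays alone. Averaged over the members, the signal was 12.19 to 12.23 in the 1 week cold arrays, against 11.19 to 11.37 in their controls, and 11.96 to 12.07 in the 5 week cold arrays, against 11.18 to 11.22 in theirs.

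**Figure D1:**
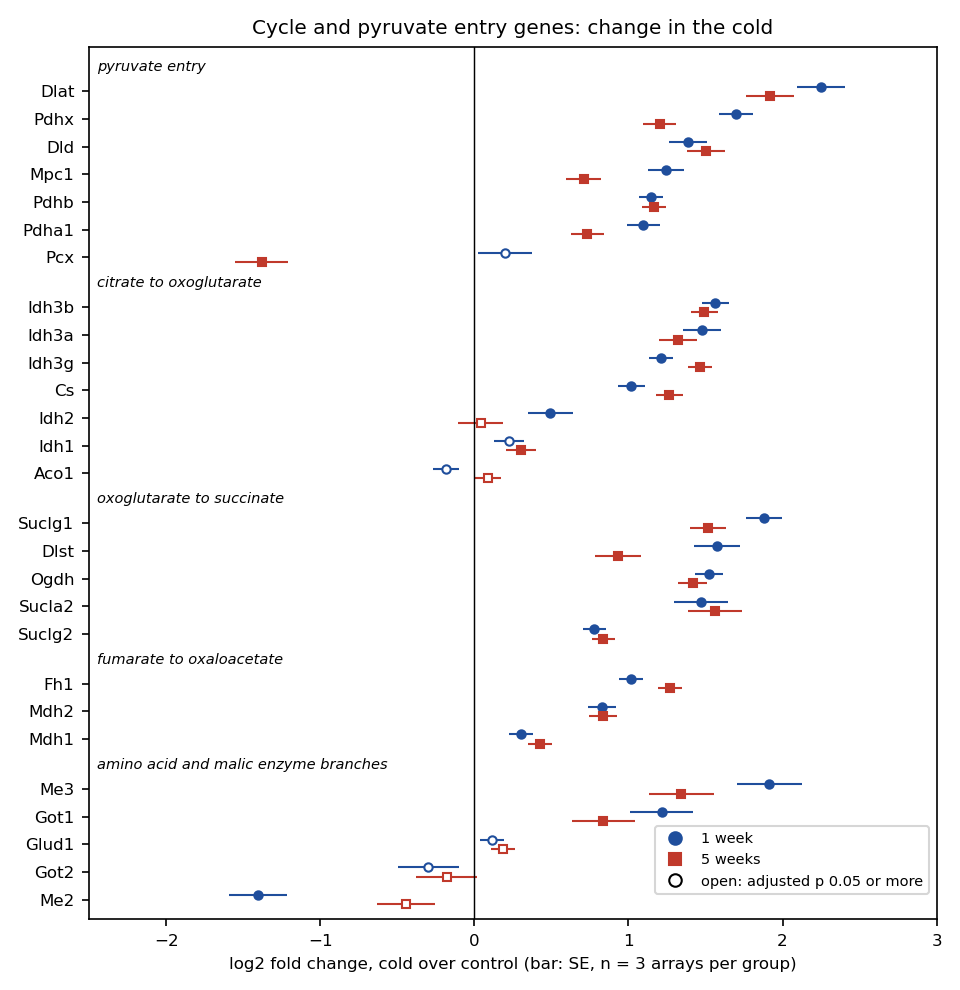
Log2 fold change, cold over control, of the 27 measured members at 1 week (circles) and 5 weeks (squares), grouped by step; bars are standard errors of the fit (3 arrays per group) and open symbols did not pass an adjusted p of 0.05. Most members lie between 0.7 and 2.25, while Aco1, Idh1, Idh2, Mdh1, Glud1 and Got2 lie between -0.30 and 0.49, and Me2 (at 1 week) and Pcx (at 5 weeks) lie below -1.3.

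Centring the arrays on the median of the tested genes, in place of the deposited scaling, raised the share of all genes called up to 35.8% at 1 week and 27.8% at 5 weeks and moved the median gene to 0.14 and 0.13. With it 23 members rose and 1 fell at each week, and the median member was 1.37 at 1 week and 1.09 at 5 weeks. With the Gapdh difference between 3′ and 5′ ends as a covariate in limma 19 members rose and 1 fell at 1 week, where 23.6% of all genes were called and 8.65% rose, and 20 members rose and 2 fell at 5 weeks, where 32.0% of all genes were called and 12.7% rose. With the mean of the muscle genes 22 members rose and 2 fell at 1 week (50.2% of all genes called, 17.2% up) and 19 rose and 1 fell at 5 weeks (18.8% called, 9.71% up). With the Actb difference as a covariate 18 members rose and 0 fell at 5 weeks (2 fell at an unadjusted p under 0.05), and 6.18% of all genes were called, 3.77% upward.

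Of the 7 measured members that bring pyruvate in, 6 rose at both weeks, and Pcx went another way. The pyruvate dehydrogenase complex rose in all its measured subunits, and its acetyltransferase core Dlat had the largest change of all members. Dlat gave log2 signals of 12.51, 12.34 and 12.48 in the 1 week cold arrays, against 10.61, 9.92 and 10.04 in the 1 week controls. At 5 weeks it gave 12.18, 12.08 and 11.87 in the cold arrays, against 10.15, 10.11 and 10.11 in the controls. No cold array overlapped a control, and the change was 4.75-fold at 1 week (log2 2.25, SE 0.16, adjusted p = 2.67e-06) and 3.79-fold at 5 weeks (log2 1.92, adjusted p = 8.94e-06). Its 2 dimmer probe sets rose as well, by 2.15 and 1.84 at 1 week and by 1.79 and 2.02 at 5 weeks.

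Pdhx, which anchors the dihydrolipoamide dehydrogenase to that core, had 11.23, 11.10 and 11.16 in the 1 week cold arrays, against 9.62, 9.37 and 9.39 in the 1 week controls. In the 5 week arrays it had 10.43, 10.38 and 10.16 in the cold, against 9.25, 9.15 and 8.96 in the controls. The groups were separate at each week, and the rise was 3.25-fold at 1 week and 2.30-fold at 5 weeks. Dld, the dihydrolipoamide dehydrogenase shared by the pyruvate and oxoglutarate complexes, rose 2.62-fold and 2.83-fold. The 2 subunits of the decarboxylase that opens the reaction also rose: Pdhb 2.22-fold and 2.25-fold, and Pdha1 2.14-fold and 1.66-fold. The second probe set of Pdha1 changed more at 1 week than at 5 weeks, by 1.99 against 0.79 on the log2 scale, with an adjusted p of 0.0224 for the difference between the weeks.

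Mpc1, a subunit of the mitochondrial pyruvate carrier, gave 14.95, 15.01 and 15.02 in the 1 week cold arrays, against 14.02, 13.48 and 13.74 in the 1 week controls. After 5 weeks it gave 14.69, 14.62 and 14.58 in the cold, against 13.88, 13.99 and 13.91 in the controls. All cold arrays lay above all controls, with rises of 2.37-fold (log2 1.25, SE 0.12, adjusted p = 1.61e-05) and 1.63-fold (log2 0.71, adjusted p = 0.000823). With the Actb end difference as a covariate the 5 week change of Mpc1 was 0.86 and was no longer called (adjusted p = 0.0671).

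**Figure D2:**
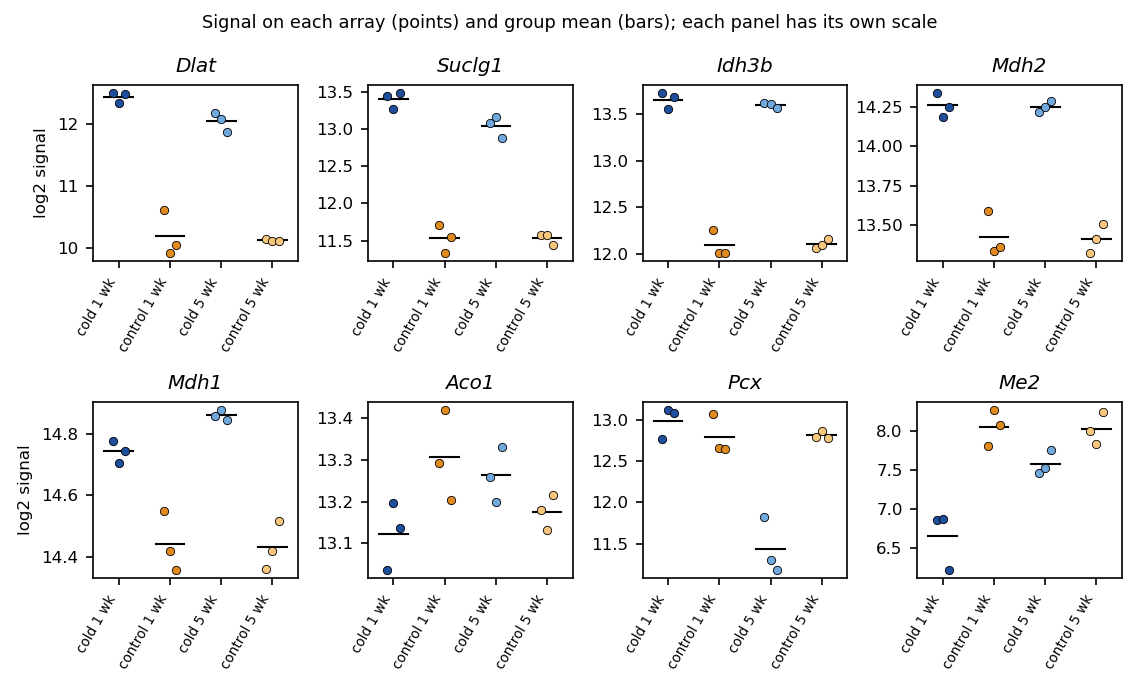
Log2 signal on each array (points) and group mean (bars) for 8 members in the 1 week cold, 1 week control, 5 week cold and 5 week control groups, each panel with its own scale that does not start at 0. Dlat, Suclg1, Idh3b and Mdh2 separate fully in the cold at both weeks, Mdh1 separates by 0.30 and 0.43, Aco1 changes by less than 0.2, Pcx separates downward at 5 weeks and Me2 lies lower in the cold, mostly at 1 week.

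Pcx, pyruvate carboxylase, fell at 5 weeks and did not pass the test at 1 week. Its gene probe set gave 12.77, 13.12 and 13.08 in the 1 week cold arrays, against 13.07, 12.66 and 12.65 in the 1 week controls, and these overlap (log2 0.20, SE 0.17, adjusted p = 0.357). In the 5 week cold arrays it gave 11.83, 11.30 and 11.18, against 12.79, 12.87 and 12.78 in the 5 week controls. Every 5 week cold array lay below every control, and the signal was 2.60-fold lower (log2 -1.38, SE 0.17, adjusted p = 0.000149).

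The array also carries 4 control probe sets placed along the Pcx transcript, which are not part of the gene tests. The one at the 3′ end differed between cold and control by 0.32 at 1 week and by -1.08 at 5 weeks, close to the gene probe set. The one at the 5′ end read 5.97, 4.98 and 9.51 in the 1 week cold arrays, against 4.41, 3.95 and 4.04 in their controls, a difference of 2.69. In the 5 week cold arrays it read 4.66, 5.01 and 4.46, against 8.20, 8.40 and 7.31 in their controls, a difference of -3.26. The 2 middle probe sets differed by 3.09 and 2.56 at 1 week and by -2.98 and -2.96 at 5 weeks. Along the transcript the signal thus dropped by 6.37, 7.81 and 3.19 in the 1 week cold arrays and by 8.13, 8.24 and 8.09 in their controls, and by 6.92, 6.30 and 6.45 in the 5 week cold arrays and by 4.17, 4.05 and 4.92 in theirs. With the Actb end difference as a covariate the Pcx change at 5 weeks was -0.92 with an adjusted p of 0.136 and so was no longer called, and with the Gapdh difference as a covariate the change at 1 week was -0.10.

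**Figure D3:**
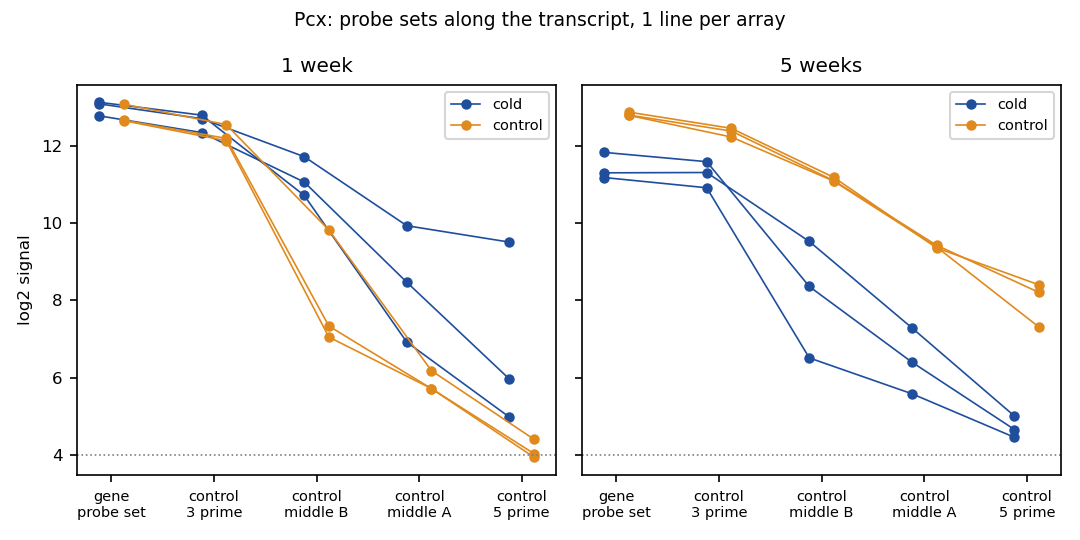
Log2 signal of the Pcx gene probe set and of the 4 control probe sets from the 3′ to the 5′ end of the transcript, 1 line per array, cold and control at 1 week (left) and at 5 weeks (right); the dotted line is log2 4. At 1 week the gene and 3′ probe sets of both groups overlap while the middle and 5′ probe sets lie higher in the cold; at 5 weeks the 3 cold arrays lie below the controls at all 5 positions.

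From citrate to oxoglutarate, the condensing enzyme and the 3 subunits of the NAD-dependent isocitrate dehydrogenase rose at both weeks, and the cytosolic and NADP-dependent enzymes changed little. Cs, citrate synthase, had 14.00, 13.80 and 14.01 in the 1 week cold arrays, against 12.94, 12.95 and 12.87 in the controls, and 14.11, 14.16 and 14.31 in the 5 week cold arrays, against 12.86, 12.96 and 12.97 in the 5 week controls. The cold arrays were all higher, 2.03-fold at 1 week and 2.40-fold at 5 weeks. A dimmer Cs probe set changed by 2.27 at 1 week and by 0.06 at 5 weeks, which is a difference between the weeks (adjusted p = 0.0118) that the brightest probe set did not show (adjusted p = 0.182).

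Idh3b, a subunit of the NAD-dependent enzyme that commits isocitrate to the cycle, had 13.73, 13.56 and 13.68 in the 1 week cold arrays, against 12.26, 12.01 and 12.01 in the controls. Its 5 week values were 13.62, 13.61 and 13.57 in the cold, against 12.06, 12.10 and 12.16 in the controls. These groups were widely apart, by 2.96-fold at 1 week (log2 1.56, SE 0.09, adjusted p = 1.01e-06) and 2.82-fold at 5 weeks (log2 1.49, adjusted p = 1.22e-06). Idh3a, the catalytic subunit, rose 2.78-fold and 2.50-fold by its brightest probe set and by log2 1.93 to 3.00 and 2.10 to 2.81 by the dimmer ones. Idh3g, another subunit, rose 2.32-fold and 2.76-fold.

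Idh2, the mitochondrial NADP-dependent isocitrate dehydrogenase, had 10.03, 10.14 and 9.94 in the 1 week cold arrays, against 9.77, 9.39 and 9.48 in the controls, and 9.75, 9.94 and 9.35 in the 5 week cold arrays, against 9.69, 9.69 and 9.53 in the 5 week controls. It rose at 1 week by 0.49 (SE 0.15, adjusted p = 0.0165), and at 5 weeks the groups overlapped and the change was 0.04 (adjusted p = 0.853). The call at 1 week was lost when the 2 controls with high Gapdh end differences were left out together (0.27) or singly (0.41 and 0.46), and with the Gapdh end difference as a covariate the change was 0.097 (adjusted p = 0.629). Idh1, the cytosolic NADP-dependent enzyme, had 13.01, 12.73 and 12.93 in the 1 week cold arrays, against 12.67, 12.73 and 12.59 in the controls, and 12.69, 12.69 and 12.92 in the 5 week cold arrays, against 12.40, 12.51 and 12.48 in the 5 week controls. It rose at 5 weeks by 0.30 (SE 0.10, adjusted p = 0.0325), where no array overlapped, and at 1 week it changed by 0.22 (adjusted p = 0.0775). The 5 week call was lost without any single control or without the highest cold array, with changes of 0.23 to 0.33, and with the Gapdh end difference (0.25) or the muscle mean (0.13) as a covariate. With the Actb end difference as a covariate the 5 week change of Idh1 was -0.00409 (adjusted p = 0.992).

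Aco1, the cytosolic aconitase that also serves as an iron regulatory protein, passed the test at neither week. Its signals were 13.04, 13.20 and 13.14 in the 1 week cold arrays, against 13.29, 13.42 and 13.20 in the controls, and 13.26, 13.20 and 13.33 in the 5 week cold arrays, against 13.18, 13.13 and 13.22 in the 5 week controls. At 1 week the cold arrays lay just below the controls, and at 5 weeks the groups overlapped. The changes were -0.18 (SE 0.08, adjusted p = 0.0906) and 0.09 (adjusted p = 0.445), and the dimmer probe set changed by 0.03 and -0.20.

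All 5 measured members from oxoglutarate to succinate rose at both weeks. They form the oxoglutarate dehydrogenase complex, which is built like the pyruvate dehydrogenase complex, and succinyl coenzyme A ligase, which makes ATP or GTP. Dlst, the succinyltransferase core, had 12.40, 12.17 and 12.12 in the 1 week cold arrays, against 10.86, 10.64 and 10.45 in the controls. At 5 weeks it had 11.83, 11.89 and 11.37 in the cold, against 10.79, 10.82 and 10.67 in the controls. Cold and control arrays were separate at each week, by 2.98-fold and 1.91-fold. The dimmer Dlst probe sets did not move together: 1 changed by 2.33 and 1.08, another by -0.61 and 0.79 and the dimmest, near log2 4.7, by -0.23 and 0.02. Ogdh, the decarboxylase of the complex, rose 2.87-fold at 1 week and 2.67-fold at 5 weeks, and its dim second probe set changed by -0.08 and 1.27.

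Suclg1, the alpha subunit common to the ATP- and GTP-forming ligases, had 13.45, 13.28 and 13.50 in the 1 week cold arrays, against 11.71, 11.33 and 11.55 in the controls. In the 5 week groups it had 13.09, 13.17 and 12.88 in the cold, against 11.57, 11.58 and 11.44 in the controls. Both weeks showed full separation, and the rise was 3.68-fold at 1 week (log2 1.88, SE 0.12, adjusted p = 1.29e-06), the largest among the enzymes of the cycle itself, and 2.86-fold at 5 weeks. Sucla2, the beta subunit of the ATP-forming ligase, had 14.52, 13.85 and 14.65 in the 1 week cold arrays, against 13.01, 12.67 and 12.92 in the controls, and 14.19, 14.07 and 14.14 in the 5 week cold arrays, against 12.52, 12.60 and 12.60 in the 5 week controls. The lowest of its 1 week cold values belonged to the array with high muscle transcripts and still lay above every control, and the rise was 2.77-fold and 2.95-fold. Suclg2, the beta subunit of the GTP-forming ligase, had 11.70, 11.64 and 11.69 in the 1 week cold arrays, against 10.96, 10.88 and 10.85 in the controls, and 11.60, 11.63 and 11.63 in the 5 week cold arrays, against 10.78, 10.71 and 10.85 in the 5 week controls. It rose by 1.72-fold and 1.79-fold, again without overlap.

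From fumarate to oxaloacetate all 3 members rose at both weeks. Fh1, fumarate hydratase, had 12.70, 12.57 and 12.67 in the 1 week cold arrays, against 11.71, 11.51 and 11.67 in the controls, and 12.75, 12.70 and 12.73 in the 5 week cold arrays, against 11.38, 11.51 and 11.48 in the 5 week controls. It was 2.02-fold higher in the cold at 1 week and 2.41-fold at 5 weeks, with all cold arrays above the controls. Mdh2, the mitochondrial malate dehydrogenase, had 14.34, 14.19 and 14.25 in the 1 week cold arrays, against 13.59, 13.34 and 13.36 in the controls, and 14.22, 14.25 and 14.29 in the 5 week cold arrays, against 13.33, 13.42 and 13.51 in the 5 week controls. Its rise was 1.78-fold at each week, without overlap. Mdh1, its cytosolic counterpart, had 14.78, 14.71 and 14.75 in the 1 week cold arrays, against 14.55, 14.42 and 14.36 in the controls, and 14.86, 14.88 and 14.85 in the 5 week cold arrays, against 14.36, 14.42 and 14.52 in the 5 week controls. The groups did not overlap here either, but the rise was small, 1.23-fold (adjusted p = 0.00808) and 1.34-fold (adjusted p = 0.0016), and the call at 1 week was lost with the Gapdh end difference as a covariate (log2 0.21). The 5 week call of Mdh1 was lost with the Actb end difference as a covariate, at the same change of 0.43 (adjusted p = 0.156).

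The 5 members of the amino acid and malic enzyme branches did not move together: Got1 rose at both weeks, Me3 was above log2 4 in the cold arrays alone, Me2 fell at 1 week, and Got2 and Glud1 passed the test at neither. Got1, the cytosolic aspartate aminotransferase, had 8.08, 8.04 and 7.89 in the 1 week cold arrays, against 6.65, 6.68 and 7.03 in the controls, and 7.73, 8.25 and 7.29 in the 5 week cold arrays, against 7.09, 6.72 and 6.95 in the 5 week controls. Every cold array lay above the controls, by 2.32-fold at 1 week (adjusted p = 0.000631) and 1.79-fold at 5 weeks (adjusted p = 0.00865), and the lowest 5 week cold array was close to its controls. With the muscle mean as a covariate the adjusted p of Got1 at 5 weeks was 0.0865. Got2, the mitochondrial aspartate aminotransferase, had 8.42, 9.41 and 8.68 in the 1 week cold arrays, against 9.13, 9.07 and 9.22 in the controls, and 9.12, 9.23 and 9.42 in the 5 week cold arrays, against 9.38, 9.48 and 9.44 in the 5 week controls. The groups overlapped and the changes were -0.30 (SE 0.20, adjusted p = 0.228) and -0.18 (adjusted p = 0.51). The highest 1 week cold value was on the array with high muscle transcripts, and without that array the change was -0.59 and was called. The dimmer Got2 probe sets went the other way at 1 week, by 0.62 and 0.34. In the limma fit with second brightest probe sets the rise of 0.62 was called (adjusted p = 0.0453).

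Glud1, glutamate dehydrogenase, which feeds oxoglutarate from glutamate, had 11.66, 11.64 and 11.69 in the 1 week cold arrays, against 11.51, 11.58 and 11.56 in the controls, and 11.53, 11.54 and 11.73 in the 5 week cold arrays, against 11.41, 11.36 and 11.47 in the 5 week controls. The cold arrays lay just above the controls, and the changes of 0.12 (SE 0.08, adjusted p = 0.238) and 0.19 (adjusted p = 0.0838) did not pass. Me2, the mitochondrial NAD-dependent malic enzyme, which turns malate to pyruvate, had 6.86, 6.87 and 6.22 in the 1 week cold arrays, against 7.81, 8.27 and 8.07 in the controls, and 7.46, 7.52 and 7.76 in the 5 week cold arrays, against 8.00, 7.83 and 8.25 in the 5 week controls. Cold arrays were lower at each week, by 2.65-fold at 1 week (log2 -1.40, SE 0.19, adjusted p = 0.000143), while the change of -0.44 at 5 weeks did not pass (adjusted p = 0.0888). The dimmer Me2 probe sets changed by -0.66 and -0.89 at 1 week and by -0.72 and -0.50 at 5 weeks. In limma the 5 week fall was called with second brightest probe sets (adjusted p = 0.00663) and with the mean over probe sets (adjusted p = 0.00831).

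Me3, the mitochondrial NADP-dependent malic enzyme, was the dimmest member. It had 5.15, 5.51 and 5.27 in the 1 week cold arrays, against 3.50, 3.46 and 3.22 in the controls, and 5.00, 5.10 and 4.29 in the 5 week cold arrays, against 3.63, 3.10 and 3.63 in the 5 week controls. All control arrays were below log2 4 and all cold arrays above it, so the gene passed the filter only through the cold groups and had to differ. With signals below 4 set to 4, Me3 was at least 2.48-fold higher at 1 week and at least 1.73-fold higher at 5 weeks, and these bounds are a description with no test.

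Enzymes that exist in a mitochondrial and a cytosolic form, or in forms of different nucleotide use, were compared within each array, so that any shift common to an array cancels. Of 9 such pairs 7 had both genes measured. The difference in log2 signal between the 2 genes was taken on every array, and its cold minus control change, averaged over both weeks, was tested with a two-sided exact permutation test that exchanged labels within each week. This gave 400 arrangements and a smallest possible p of 0.005, and p-values were adjusted over the 7 pairs, Me3 minus Me1 among them. Only the change of a difference is read, since signals of separate probe sets share no scale.

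The mitochondrial gene rose more than the cytosolic one for malate dehydrogenase. Mdh2 minus Mdh1 was -0.44, -0.52 and -0.49 in the 1 week cold arrays, against -0.96, -1.08 and -0.995 in the controls, and -0.64, -0.63 and -0.56 in the 5 week cold arrays, against -1.04, -1.004 and -1.01 in the 5 week controls. The groups were separate at both weeks, with changes of 0.53 and 0.41 and an average of 0.47 (adjusted p = 0.00875). Idh3a minus Idh1 likewise changed by 1.25 and 1.02, on average 1.14 (adjusted p = 0.00875), without overlap.

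For aspartate aminotransferase the order was the other way. Got2 minus Got1 was 0.34, 1.37 and 0.79 in the 1 week cold arrays, against 2.48, 2.38 and 2.19 in the controls, and 1.39, 0.98 and 2.12 in the 5 week cold arrays, against 2.29, 2.76 and 2.50 in the 5 week controls. All cold values lay below all controls, by 1.52 at 1 week and 1.02 at 5 weeks, an average of -1.27 (adjusted p = 0.00875). The Got2 signal here is that of its brightest probe set, while the second brightest changed by 0.62 at 1 week. With the muscle mean as a covariate in limma, Got2 changed by -0.54 at 1 week and by 0.42 at 5 weeks. Got1 changed by 0.86 at 5 weeks in that fit. A difference within an array does not cancel muscle content, and the pair was not tested with that covariate. Me2 minus Me1, where Me1 is the cytosolic malic enzyme, changed by -2.70 and -0.76 (average -1.73, adjusted p = 0.0117) and overlapped at 5 weeks. For Me3 minus Me1 no size or test is given, since Me3 was below log2 4 in all controls and entered through the cold arrays alone.

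No such change was seen between the 2 NADP-dependent isocitrate dehydrogenases. Idh2 minus Idh1 was -2.98, -2.58 and -2.99 in the 1 week cold arrays, against -2.91, -3.34 and -3.11 in the controls, and -2.95, -2.75 and -3.57 in the 5 week cold arrays, against -2.71, -2.83 and -2.94 in the 5 week controls. The groups overlapped at both weeks, the changes of 0.27 and -0.26 had opposite signs, and their average was 0.00 (exact permutation p = 0.975), which does not show that the 2 genes behaved alike. Of the succinyl coenzyme A ligase subunits, Sucla2 rose more than Suclg2, by 0.69 at 1 week and 0.72 at 5 weeks, on average 0.71 (adjusted p = 0.00875), with no overlap. Of the 6 pairs without Me3, 5 passed, 3 of them upward. Within a single week 3 arrays against 3 allow 20 arrangements and no p below 0.1.

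**Figure D4:**
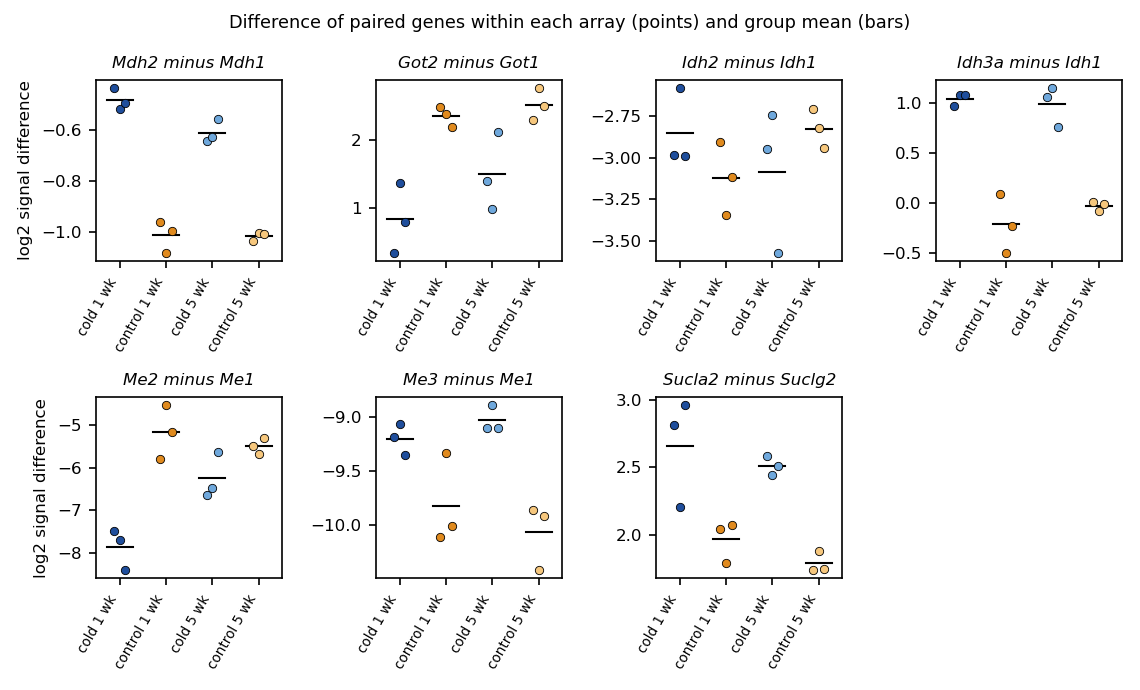
Difference in log2 signal between the 2 genes of each pair on each array (points) with group means (bars), in the 1 week cold, 1 week control, 5 week cold and 5 week control groups; scales differ between panels and do not include 0 in most. Cold points lie above control points in both weeks for Mdh2 minus Mdh1, Idh3a minus Idh1 and Sucla2 minus Suclg2, below them for Got2 minus Got1, and among them for Idh2 minus Idh1.

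Of the 27 members, 17 had more than 1 probe set past the filter, and 56 probe sets of members could be compared in all. At 1 week 41 of the 56 rose and 4 fell, and at 5 weeks 41 rose and 2 fell. Of all 22378 probe sets tested 18.5% rose and 27.2% fell at 1 week, and 13.1% rose and 20.0% fell at 5 weeks. All probe sets of a gene pointed the same way for 12 of the 17 genes at 1 week and for 13 at 5 weeks. Probe sets of opposite sign were found for Aco1, Glud1 (at 5 weeks) and Got2, whose brightest probe set did not pass. They were also found for Mdh1, by its dim probe sets, and for Dlst and Ogdh at 1 week. Mdh1, Dlst and Ogdh were called up at both weeks by their brightest probe set.

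**Figure D5:**
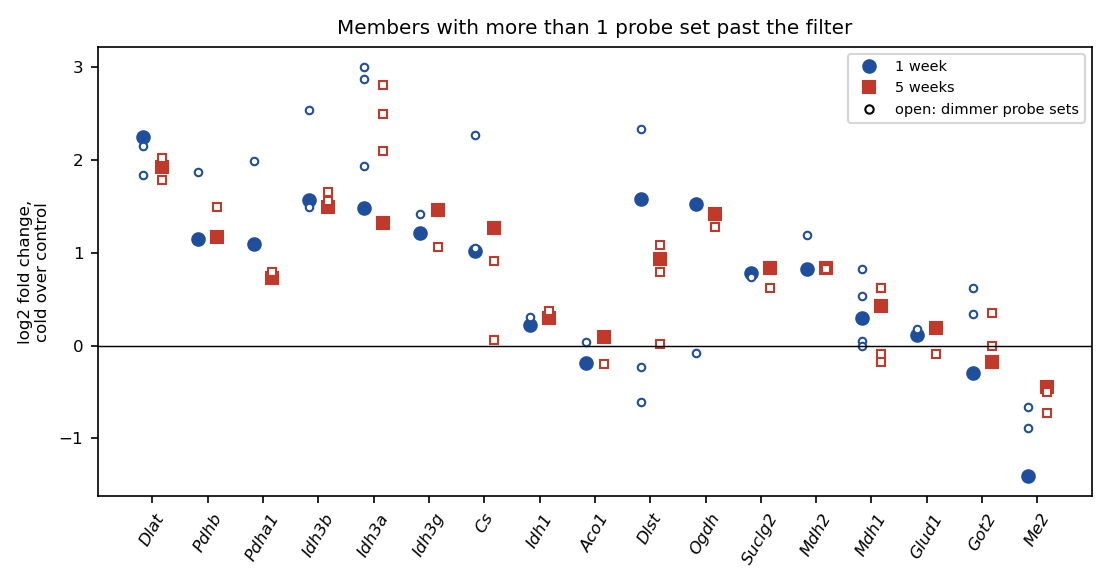
Log2 fold change, cold over control, of every probe set past the filter for the 17 members that have more than 1, at 1 week (circles) and 5 weeks (squares); filled symbols are the brightest probe set and open ones the dimmer. For Idh3a the dimmer probe sets reach 3.00, while the brightest gave 1.48 at 1 week; for Cs (2.27 against 1.02), Dlst (-0.61 against 1.58) and Ogdh (-0.08 against 1.52) a dimmer probe set also lies more than 1 log2 unit from the brightest at 1 week.

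Whether the response differed between the weeks was tested as the cold effect at 5 weeks minus that at 1 week. Of the 27 members 4 passed, 1 upward and 3 downward, against 19.8% of all genes (11.5% upward and 8.38% downward). The differences were -1.58 for Pcx (SE 0.24, adjusted p = 0.00555), 0.96 for Me2 (SE 0.27, adjusted p = 0.0293), -0.54 for Mpc1 (SE 0.16, adjusted p = 0.0419) and -0.50 for Pdhx (SE 0.15, adjusted p = 0.0442). Mpc1 and Pdhx thus rose less at 5 weeks than at 1 week. The largest of the others was Dlst, at -0.64 (adjusted p = 0.0527). For Me2 the difference was -0.06 with the second brightest probe set and 0.43 with the mean over probe sets, and neither was called. When single arrays were left out in turn, the call held in all 12 fits for Pcx, in 7 for Me2, in 4 for Pdhx and in 1 for Mpc1. In limma with the Gapdh or the Actb end difference as a covariate 0 of the 27 passed (2 and 1 at an unadjusted p under 0.05). With the muscle mean as a covariate 1 other member passed, upward, and all 4 named members lost the call. Their differences were then -1.36 for Pcx, 1.30 for Me2, -0.54 for Mpc1 and -0.60 for Pdhx. Without the 2 controls of high Gapdh difference, a fit with a single 1 week control, they were -1.30, 0.72, -0.27 and -0.34 in that order. Under the covariate fits few genes of any kind passed: 0.0233% of all genes with Gapdh, 0% with Actb and 6.02% with the muscle mean.

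Of 45 genes related to the pathway but not members, 41 were measured, and 30 rose and 5 fell at 1 week while 25 rose and 8 fell at 5 weeks. Of all genes 17.9% rose and 31.6% fell at 1 week, and 15.0% rose and 21.2% fell at 5 weeks. Succinate dehydrogenase, which ties the cycle to the respiratory chain, rose in all 4 subunits at 1 week (Sdha 0.90, Sdhb 1.38, Sdhc 1.51 and Sdhd 0.97), and Sdhc did not pass at 5 weeks (0.37, adjusted p = 0.156). All 3 measured genes of lipoate attachment, the cofactor of the dehydrogenase complexes, rose at both weeks, among them Lipt1 by 1.90 and 1.65. Nnt, the transhydrogenase that makes mitochondrial NADPH, fell by 1.57 at 1 week and by 1.10 at 5 weeks.

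The kinases and phosphatases that switch pyruvate dehydrogenase off and on changed in both directions. Pdk4, a kinase that inhibits the complex, rose by 3.18 at 1 week and 4.15 at 5 weeks, Pdk2 by 2.27 and 0.95, and Pdk1 by 0.58 and 0.49. Pdk3 fell by 0.61 and 0.78, and Pdp1, a phosphatase that reactivates the complex, fell by 0.43 and 0.39. Pdp2, another such phosphatase, changed by -0.04 at 1 week (adjusted p = 0.89) and rose by 0.99 at 5 weeks, and Pdpr, a regulatory subunit of the phosphatase, rose by 0.39 and 0.73. Ldhb, a lactate dehydrogenase subunit, rose by 2.37 and 2.44.

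Of the 5 measured mitochondrial carriers 4 differed between the weeks, all downward, as did 8.38% of all genes. At 1 week 4 rose and 1 fell (17.9% and 31.6% of all genes), and at 5 weeks 1 rose and 2 fell (15.0% and 21.2%). Slc25a10, the dicarboxylate carrier, changed by 1.06 at 1 week and by -1.45 at 5 weeks (adjusted p = 0.00596 for the difference). Slc25a1, the citrate carrier, changed by 2.32 at 1 week and by -0.53 (adjusted p = 0.404) at 5 weeks. Its signals were 13.4, 13.2 and 13.5 in the 1 week cold arrays, against 12.3, 10.8 and 10.1 in their controls, and 12.4, 12.6 and 11.3 in the 5 week cold arrays, against 12.7, 12.6 and 12.6 in theirs. The 2 lowest 1 week controls and the lowest 5 week cold array are the 3 arrays with a Gapdh end difference of 3.00 or more, and the part of that difference in the carriers' change was not tested. Slc25a12, an aspartate-glutamate carrier, fell by 0.85 and 0.86. Of genes of neighbouring reactions, Gpt (alanine aminotransferase) fell by 0.86, Gpt2 by 0.40 and Pck2 (mitochondrial phosphoenolpyruvate carboxykinase) by 0.46 at 5 weeks, with 1 week changes of 0.34, 0.07 and -0.12. Among 8 transcription regulators of mitochondrial genes 4 rose at 1 week and 5 at 5 weeks, against 17.9% and 15.0% of all genes. Ppargc1a rose by 1.64 and 1.79, Ppargc1b by 1.63 and 1.82, and Nrf1 was lower by 0.61 at 1 week. Tfam, which maintains mitochondrial DNA, passed at neither week (-0.10 and -0.02).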

How the data were processed

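The authors deposited log2 signals of 45101 probe sets on 12 arrays, made with GCRMA per the submitters' processing notes, which corrects background, normalizes between arrays and summarises probes. Its version is not given in the sources used here, and the number of arrays limits the precision. Probe sets naming 1 gene (34958) took symbols from the array annotation, updated through the gene identifier. The 64 control probe sets were kept out of gene tests, and 22378 probe sets above log2 4 on at least 3 arrays remained. The brightest per gene, for 12855 genes, was tested by limma 3.58.1 under R 4.3.3, two-sided, with lmFit and eBayes fitted to the 4 group means of all arrays. Calls used a Benjamini-Hochberg adjusted p under 0.05 over all genes, and the scripts were tested on simulated data. Values per array are given for the largest change of each complex or step, for members that fell, passed at neither week or differed between weeks, and for isoform pairs. Related genes named had the smallest adjusted p or fell. Pdk1, Pdk2, Pdp2, Pdpr, Sdhc, Slc25a1, Ppargc1b, Esrra, Esrrb, Esrrg, Gabpa and Tfam were added after their values were seen. The members and lists were chosen with earlier results of these data known. A planned comparison of protein sequences was not run.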

Additional observations from a re-analysis of the deposited data

Results flagged for a closer look

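The cold effect differed between 5 weeks and 1 week, by a test of the difference itself, for 4 members: by -1.58 for Pcx, 0.96 for Me2, -0.54 for Mpc1 and -0.50 for Pdhx on the log2 scale. All 4 lost the call when either the Gapdh or the Actb difference between 3′ and 5′ ends entered the fit as a covariate, under which 0.0233% and 0% of all 12855 genes passed. The differences were then -1.10 and -1.08 for Pcx, 0.47 and 0.35 for Me2, -0.21 and -0.38 for Mpc1 and -0.13 and -0.18 for Pdhx, with Gapdh and with Actb in that order. The part of RNA quality in these differences was not tested beyond those fits. The control probe sets along the Pcx transcript lie outside the gene tests and gave more signal in the cold than in the controls at 1 week: by 0.32 at the 3′ end, 3.09 at middle B, 2.56 at middle A and 2.69 at the 5′ end, on the log2 scale. At the 5′ end the 1 week controls lay near log2 4, and 1 cold array lay well above the others. At 5 weeks the same probe sets gave less signal in the cold than in the controls, as given above.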

How the results depend on the processing

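The counts of members called at 1 week (22, rises and falls together) and at 5 weeks (22) were 20 to 24 and 18 to 24 under all settings that kept the 27 members, and 14 of 17 at each week with the second brightest probe set. Leaving out 1 array at a time gave 21 to 24 and 21 to 23. The count for the difference between the weeks (4) was 2 with no filter on dim probe sets, 2 of 17 with the second brightest probe set, 0 with the Gapdh or the Actb end difference as a covariate (2 and 1 at an unadjusted p under 0.05; 0.0233% and 0% of all genes passed), 1 with that of Pcx (chosen after seeing the data), 0 without the 1 week controls of high Gapdh difference (3 unadjusted), 1 with the muscle mean, 0 with the 5 week controls averaged to 1 array (5 at an unadjusted p under 0.05; these controls were the closest replicates, with an SD of differences of 0.198 to 0.220), 1 at an adjusted p under 0.01, 2 with 1.5-fold required, and 1 to 7 without single arrays (7 without 1 week control 1, and 1 without 1 week control 2 or 3, 5 week control 1 or 2, or 5 week cold array 3). With a replicate block the counts were 22, 21 and 4. Arrays of the same number shared only the number (r of deviations -0.03 to 0.07). Of the isoform pairs without Me3, all 5 that passed still did with the replicate block (sign permutation over 6 pairs). They also did when any single array was left out. Me3 minus Me1 is not counted here, since the filter on dim signals bears on it. With second brightest probe sets 3 of 3 pairs passed. At 1 week alone and at 5 weeks alone 0 did, where no p under 0.1 is possible.

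Direction turned mostly for members near no change, and also for Ogdh at 1 week and for the Me2 difference between weeks. With the mean over probe sets, Got2 was 0.22 at 1 week and 0.0557 at 5 weeks, Aco1 -0.0549 at 5 weeks and Idh2 minus Idh1 -0.0335. With the second brightest probe set, Got2 was 0.62 and called up, Aco1 0.0341 and Ogdh -0.0779 at 1 week. At 5 weeks Aco1 was -0.20 and Glud1 -0.0899, and the Me2 difference between weeks was -0.0593. Centred arrays gave Aco1 0.0368 at 1 week. In limma, covariates turned Aco1 (-0.0351), Glud1 (-0.0285) and Idh1 (-0.00409) at 5 weeks with Actb, Pcx at 1 week with Gapdh (-0.10, and -0.0822 without the 2 controls), Idh2 at 5 weeks with Pcx (-0.0224) and Got2 at 5 weeks with muscle (0.42). The 1 week call of Got2 (-0.59) and of Idh1 (0.31) appeared without the muscle-rich cold array. The 5 week fall of Me2 was called without 1 week cold array 3 or with only the 5 week groups fitted (-0.44 in each). It was also called with the second brightest probe set (-0.72), the mean over probe sets (-0.55), or the Gapdh (-0.63) or Pcx (-0.78) end difference as a covariate. Without single arrays Idh2 at 5 weeks was -0.0901 to 0.21 and Idh2 minus Idh1 averaged -0.0817 to 0.12, and it was -0.26 at 5 weeks alone. The causes were not tested.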
